A study of Schmidtea mediterranea with 24 samples.

Results

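Ribosome footprints were compared with mRNA, gene by gene, in the control worms of a knockdown study of the planarian *Schmidtea mediterranea*, a flatworm that regrows lost body parts from stem cells. The worms had been fed bacteria that made double-stranded RNA (dsRNA) against *egfp*, a jellyfish reporter gene that planarians lack, and were cut and collected as head, trunk and tail fragments at 48 hours post amputation (hpa). There were 2 control sets. The *egfp* KD set was the control of the *fbl-1* knockdown, and the *egfp* 2x KD set was the control of the *fbl-2* knockdown. The study's methods give a 4x food for *fbl-1* and a 2x food for *fbl-2*, but no strength for plain *egfp*, so the sets may differ in dose as well as in worms and libraries. Each set had 3 mRNA and 3 footprint libraries, and each replicate was a lysate of 30 worms that was divided between the assays, 25% for RNA-seq and 75% for Ribo-seq. All worms were whole-animal mixtures of tissues, so a gene's value is a sum over cell types, and fewer cells of a type cannot be told apart from less RNA per cell. The genes compared were the 10581 of 16575 whose mean mRNA value was 50 or more in both sets. A further 201 genes reached that value in *egfp* KD only and 96 in *egfp* 2x KD only. *SMED30009783*, with mean mRNA values of 57 and 49.7 in *egfp* KD and *egfp* 2x KD, fell just outside, and *SMED30013086*, with 52 and 50, just inside.

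A ribosome protects the stretch of mRNA it sits on from nuclease. Sequencing these protected fragments (Ribo-seq) counts ribosomes on each mRNA, whereas RNA-seq of the same lysate counts the mRNA itself. The footprint to mRNA ratio of a gene is commonly called its translational efficiency. It rises when initiation is frequent or elongation slow, and it falls for mRNAs that are stored, silenced or noncoding. The share of the transcript that is coding and the way reads are assigned to near-identical copies also enter it. In planarians, stem cells called neoblasts divide and feed progenitors of every tissue, and the footprint to mRNA ratio describes how the mRNAs of these cells and of the differentiated tissues are loaded in the regenerating animal.

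The values were whole numbers scaled by the authors with 1 factor per library, and the number of reads behind them is unknown. Library totals were 8762055 to 9361342 for mRNA and 9116524 to 10610794 for footprints, and 1547 to 1836 genes were at 0 in an mRNA library against 2262 to 3896 in a footprint library. Over the genes compared, Spearman correlations between mRNA libraries of a set were 0.974 to 0.989, between footprint libraries 0.939 to 0.989, and between an mRNA and a footprint library 0.831 to 0.893. In the *egfp* KD set, 1 of the 3 footprint libraries, egfp-3, stood apart, with correlations of 0.939 and 0.946 to the others, which correlated with each other at 0.989. The footprint libraries of *egfp* 2x KD correlated at 0.947 to 0.963. So egfp-3 lay just under that range, and the pair of egfp-1 and egfp-2 lay above it. Between the sets, the mRNA libraries correlated at 0.957 to 0.985, and the lowest value joined the replicate 2 libraries of the sets, which lay on opposite sides of the others. The counts over all genes are given below with and without these libraries, and a count over a gene list is given without them where it changed by more than 1.5 times. The assays were scaled apart, so the log2 ratio of the group means was shifted so that the median gene lay at 0 in each set. A ratio of 1 therefore marks a gene whose footprints were 2-fold over its mRNA in comparison with the median gene, and no gene has an absolute ratio.

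Most genes lay close to the median gene. The ratio was within 2-fold of it for 81.1% of the genes in *egfp* KD and 83.7% in *egfp* 2x KD, the middle 90% of genes ran from -1.61 to 1.23 and from -1.26 to 1.23 (log2), and the lower tail was the longer, with 200 and 140 genes more than 8-fold below the median gene against 7 and 9 more than 8-fold above it. The median standard error (SE) of a ratio was 0.20 in *egfp* KD and 0.21 in *egfp* 2x KD (3 libraries of each assay). Of 10581 genes, 129 (1.22%) were called high and 273 (2.58%) low in *egfp* KD, which means that limma placed their ratio more than 2-fold from the median gene at an adjusted p under 0.05. In *egfp* 2x KD, 197 (1.86%) were called high and 189 (1.79%) low. Single libraries moved the *egfp* KD counts. Without footprint library egfp-3, which left the closely correlated egfp-1 and egfp-2, the counts were 264 high and 497 low. The high count fell to 66 without mRNA replicate 2, to 66 without mRNA replicate 3, to 69 without footprint library egfp-1 and to 73 without egfp-2, and the low count fell to 172 and 169 without mRNA replicate 1 or 2. In *egfp* 2x KD, 129 genes were called high without footprint library egfp_2x_1, and no other library moved a count of that set by over 1.5 times.

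The sets shared part of their calls. Some genes called in *egfp* KD only, such as *SLC26A2*, had a ratio that differed between the sets, as described below. By ratio alone, 2 genes lay more than 2-fold above the median gene in 1 set and more than 2-fold below it in the other. In both sets, 53 genes (0.501%) were called high and 158 (1.49%) low, and no gene was called high in one set and low in the other. Of the 158, 51 had footprints listed at 0 in all 6 footprint libraries, where a low call may rest on a failed estimate. The shared high calls were 41.1% of those of *egfp* KD and 26.9% of those of *egfp* 2x KD, and the shared low calls were 57.9% and 83.6%. Of the 273 genes called low in *egfp* KD, all 273 lay below the median gene in *egfp* 2x KD and 246 lay more than 2-fold below it (412 and 353 of 415 with the libraries that stood apart left out). Of the 129 called high, all 129 lay above the median gene in *egfp* 2x KD and 95 more than 2-fold above it (226 and 148 of 226 without those libraries). The ratio of the high calls was smaller in the set that had not chosen them, with a median of 2.12 in *egfp* KD and 1.43 in *egfp* 2x KD. Left out one at a time, the 12 libraries gave 31 to 64 genes high and 131 to 178 low in both sets, with the fewest high calls, 31, without *egfp* KD mRNA replicate 3. With egfp-3 and both mRNA replicate 2 libraries left out together, an alternative chosen after seeing the data, 61 and 155 genes were called in both sets. Across the 10581 genes the ratios of the sets had a Pearson correlation of 0.84 and a Spearman correlation of 0.65. The Pearson value rests partly on the long lower tail, since it was 0.69 over the 9722 genes whose mean footprint value was also 50 or more in both sets. These correlations are across genes, which are not independent replicates.

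**Figure D1:**
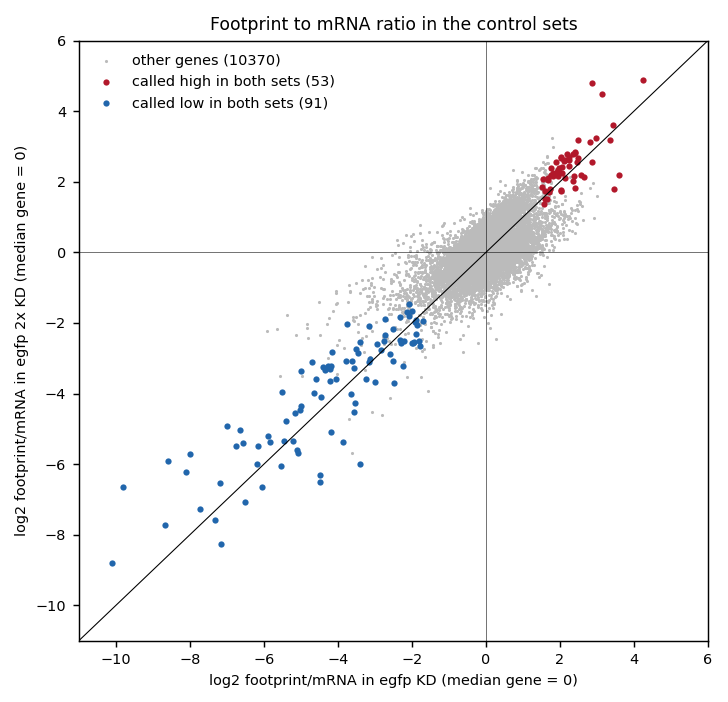
Log2 footprint to mRNA ratio of each gene in *egfp* KD (x axis) and *egfp* 2x KD (y axis), with the median gene at 0 in each and the line of equality; the 53 genes called high in both sets are red, the 91 drawn genes called low in both are blue, and the 67 genes with footprints listed at 0 in all libraries of a set are not drawn. The lower left tail is longer than the upper right one, and the called genes lie along the line.

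The ratio varied little with mRNA level, and its order with level was unlike in the sets. With the genes divided into 5 equal classes of mean mRNA, from 50.3 to 133 in the lowest class and 931.5 to 124120 in the highest, the class medians of the ratio lay between -0.05 and 0.03 in *egfp* KD and between -0.05 and 0.11 in *egfp* 2x KD, where they rose from class to class. High calls fell from 43 in the lowest class to 16 in the highest in *egfp* KD, and rose from 25 to 65 in *egfp* 2x KD. Low calls did not split in this way, with 58 in the lowest and 67 in the highest class in *egfp* KD and 28 and 60 in *egfp* 2x KD. The mRNA values are not divided by transcript length, so the classes mix abundance with length. The interquartile range narrowed from 1.17 in the lowest class to 0.76 in the highest in *egfp* KD, and from 1.01 to 0.84 in *egfp* 2x KD. The genes called low in both sets had a median mRNA value of 544 in *egfp* KD, above the 340 of all genes compared, and a median footprint value of 3.67. The genes called high in both had a median mRNA value of 228 and a median footprint value of 1007.

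At the low end stood mRNAs with hardly any footprints. Footprints were listed at 0 in all 6 footprint libraries for 51 genes, and 12 of these had mean mRNA values of 1000 or more in both sets. Whether a 0 marks an mRNA without ribosomes or a failed estimate was not tested, and no fold is given for such a gene. *ASTL* (*SMED30002195*), named for astacin-like, a secreted metalloprotease, had mRNA values of 11973, 8214 and 9526 in *egfp* KD and of 9423, 10566 and 9143 in *egfp* 2x KD, with footprints listed at 0 in all 6 libraries. Another 4 genes with the same name had footprints, among them *SMED30010228* with mean values of 2612.7 for mRNA and 3768.3 for footprints in *egfp* KD. *SSPO* (*SMED30025808*), named for a large secreted glycoprotein, had mRNA values of 844 to 1508 over the 6 libraries and footprints listed at 0, while *SMED30008350* of the same name lay at -0.09 and 0.57. *RRP12* (*SMED30026629*), a factor of ribosome maturation and export, had mRNA values of 337 to 513 and footprints listed at 0. The same held for *EIF4G1* (*SMED30020652*), the scaffold of the cap-binding complex, at mRNA values of 135 to 247, for *PAXIP1*, a DNA damage response protein, at 93 to 141, and for *VPS13D*, a lipid transfer protein, at 90 to 111. *MEP1B*, the beta subunit of the metalloprotease meprin, had mRNA values of 73 to 120, and its footprints were at 0 in 5 libraries and at 12 in egfp_2x_1. Of the genes without a name, *SMED30011609* had mRNA values of 6515 to 9181 and *SMED30030151* of 3232 to 4260, each with footprints listed at 0 in all 6 libraries.

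Other mRNAs had footprints that were few but measurable. *VCP* (*SMED30000299*), the ATPase that extracts proteins from membranes and complexes, had mRNA values of 8349, 10949 and 11488 and footprint values of 5, 17 and 48 in *egfp* KD. In *egfp* 2x KD its mRNA values were 11934, 10794 and 11375 and its footprint values 35, 84 and 31. The assays did not come near each other in either set. The ratio was -8.66 (SE 0.61, adjusted p = 4.17e-05) and -7.74 (SE 0.30, adjusted p = 7.57e-08). *FCGBP*, a mucin-like secreted protein with the highest mRNA among the named low genes, had mRNA values of 61036, 73554 and 34204 and footprint values of 3007, 2295 and 3724 in *egfp* KD. Its values in *egfp* 2x KD were 47047, 36024 and 57145 for mRNA and 6532, 6469 and 5884 for footprints, and the ratios were -4.17 and -2.83 (SE 0.29 and 0.15). *TUBB4B* (*SMED30004118*), a beta-tubulin, had mRNA values of 9631 to 12139 and footprint values of 158 to 536 over both sets, with ratios of -5.15 and -4.54 (adjusted p = 9.28e-05 and 9.76e-07). A second gene of that name, *SMED30019006*, had similar mRNA values of 11354 to 14245 and footprint values of 17908 to 27945, with ratios of 0.72 and 1.05. Reads that fit several genes were not counted, so genes with a near-identical copy, such as the tubulins, are uncertain.

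The remaining named genes called low in both sets were of several kinds. *CTNNB1*, a beta-catenin, which joins cadherins to actin and carries the Wnt signal, had mRNA values of 4747, 6007 and 6363 and footprint values of 1241, 1149 and 1470 in *egfp* KD. Its values in *egfp* 2x KD were 5621, 5272 and 5454 for mRNA and 1840, 1697 and 2153 for footprints, so all footprint libraries lay below all mRNA libraries. Its ratios were -2.09 (SE 0.15, adjusted p = 0.00237) and -1.46 (SE 0.11, adjusted p = 0.0305), and the latter call was lost without mRNA replicate 1 or 3 or footprint library egfp_2x_1 or egfp_2x_2 (adjusted p up to 0.14). *HIST1H4A*, histone H4, of the nucleosome core, had ratios of -2.002 and -1.67, *GRN*, a secreted growth factor precursor, -1.88 and -1.93, and *CNOT2*, a subunit of the complex that removes poly(A) tails, -3.23 and -3.58. *GLUL*, glutamine synthetase, had -2.25 and -3.21, *SUGCT*, a mitochondrial CoA transferase, -1.95 and -2.53, and *TFPI*, a protease inhibitor, -2.74 and -1.89. *TSFM*, the mitochondrial elongation factor Ts, had -4.99 and -3.37, and *KAT6B*, a histone acetyltransferase, -5.52 and -3.95. These 9 complete the 19 named genes called low in both sets. Of the 19, 10 were called low in both sets in every fit with 1 library left out, among them *HIST1H4A* and no other of these 9. In *egfp* KD, *GRN* and *SUGCT* were called only without egfp-3 (adjusted p up to 0.157 otherwise), *GLUL* in 2 of 6 fits, and *CNOT2* and *TSFM* in 3. *GRN* and *KAT6B* were called in 3 of 6 fits of *egfp* 2x KD, *TFPI* in 4 and *GLUL* in 5. By name, 7 of the 19 (36.8%) shared their name with another gene, as did 28.4% of all 1927 named genes compared, where a name is that of the best protein match.

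Of the 53 genes called high in both sets 12 had a name. *SOGA3*, named for a poorly characterised coiled-coil protein, had mRNA values of 877, 1072 and 644 and footprint values of 4294, 3725 and 6016 in *egfp* KD. In *egfp* 2x KD its mRNA values were 1268, 740 and 1350 and its footprint values 9728, 10239 and 9100. The assays did not overlap in either set, and the ratio was 2.49 (SE 0.22, adjusted p = 0.00288) and 3.18 (SE 0.19, adjusted p = 1.57e-05). *RPS13*, a protein of the small ribosomal subunit, had mRNA values of 157, 194 and 236 against footprint values of 888, 897 and 1236 in *egfp* KD. The gap was repeated in *egfp* 2x KD, with 136, 215 and 224 against 1270, 1390 and 1268, and the ratios were 2.41 and 2.83 (SE 0.20 in each, adjusted p = 0.00222 and 8.34e-05). *RPS25*, also of the small subunit, had ratios of 1.81 and 2.26. *MYH7*, a muscle myosin heavy chain, had the highest values of the 12, with mRNA values of 4809, 6003 and 4819 and footprint values of 18308, 18558 and 22269 in *egfp* KD. Its values in *egfp* 2x KD were 7046, 5334 and 6833 for mRNA and 32722, 32281 and 31259 for footprints, and the ratios were 1.98 and 2.39 (SE 0.15 and 0.12).

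Of the other named genes called high in both sets, *ETV4*, an ETS factor, had ratios of 2.24 and 2.62 (adjusted p = 0.00824 and 0.00132), and its call in *egfp* KD was lost without mRNA replicate 2 (adjusted p = 0.0549). *TSHZ2*, a zinc finger factor, had 2.24 and 2.70, *TAF3*, a subunit of the general factor TFIID, 2.20 and 2.80, *PPP1R10*, a nuclear regulator of protein phosphatase, 2.03 and 2.67, and *ZNF236*, a zinc finger protein, 1.96 and 2.35. *PGLYRP2*, which cleaves bacterial peptidoglycan, had 2.42 and 1.82, and its call in *egfp* 2x KD (adjusted p = 0.0311) held in 1 of 6 fits with a library left out, with adjusted p up to 0.135. *COL4A6*, a collagen of basement membranes, had 1.803 and 2.17, and its call in *egfp* KD (adjusted p = 0.0415) held only without egfp-3 (up to 0.0967 in the other 5 fits). *FKBP15*, a protein of endosome transport, had 1.69 and 2.12. Of the 12, *SOGA3*, *RPS13*, *TAF3* and *MYH7* were called high in both sets in every fit with 1 library left out. In *egfp* KD, *ZNF236* and *FKBP15* were called in 2 of 6 fits, *TSHZ2* in 3, and *PPP1R10* and *RPS25* in 5, with adjusted p up to 0.116. The gene with the highest ratio had no name: *SMED30009050* had mRNA values of 78 to 117 over both sets and footprint values of 974 to 3377, with ratios of 4.24 and 4.87 (adjusted p = 7.39e-05 and 3.83e-08). *SMED30006821*, also without a name, had ratios of 3.59 and 2.19.

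**Figure D2:**
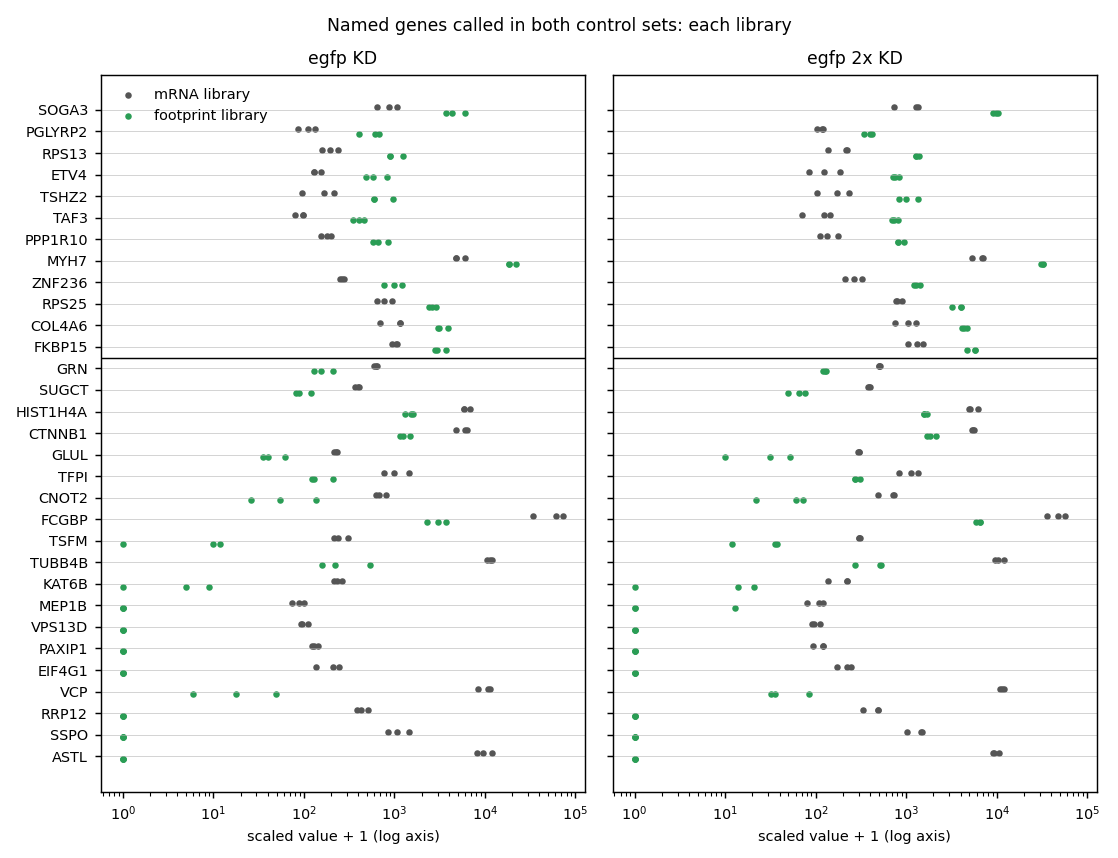
Scaled value plus 1 (x axis, log scale) in each mRNA library (grey) and footprint library (green) of *egfp* KD (left) and *egfp* 2x KD (right) for the 31 named genes called in both sets; the 12 above the line were called high and the 19 below it low. Points at 1 are libraries where footprints were listed at 0, as for *ASTL* in all 6, and green and grey points do not mix for *SOGA3*, *MYH7* or *VCP*.

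Of the 8 named genes with the highest ratio in *egfp* KD, 4 were not called in *egfp* 2x KD. *FTMT*, a ferritin of mitochondria that stores iron, had footprint values of 2510, 2811 and 2003 in *egfp* KD and of 599, 857 and 861 in *egfp* 2x KD, at mRNA values of 330 to 522 over both sets. Its ratio was 2.62 in *egfp* KD (adjusted p = 0.000481) and 0.90 in *egfp* 2x KD. *ATP5MD*, a small subunit of ATP synthase, had 2.59 and 1.32, *DAD1*, a subunit of the oligosaccharyltransferase, 2.56 and 1.68, and *CAV3*, a protein of membrane caveolae in muscle, 2.45 and 1.36. The other 4, *SOGA3*, *PGLYRP2*, *RPS13* and *ETV4*, were called in both sets. All 8 of the lowest named genes of *egfp* KD were called low in *egfp* 2x KD. *MEP1B* lost its call there without mRNA replicate 2 (adjusted p = 0.0671). *ASTL*, *SSPO*, *RRP12*, *EIF4G1*, *PAXIP1* and *VPS13D* had footprints listed at 0 in every library of both sets, and *MEP1B* in every library of *egfp* KD. Only *VCP* of the 8 had a measured ratio in both sets. Whether the calls at 0 mark mRNAs without ribosomes or a failed estimate in both sets was not tested. These shared calls therefore do not show that low loading was repeated.

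Among genes of the translation machinery, most cytosolic ribosomal proteins and aminoacyl-tRNA synthetases lay above the median gene, and initiation and termination factors did not. Over all genes compared, 36.0% lay above the median gene in both sets and 36.0% below it in both; over the 1927 genes with a name these shares were 46.2% and 27.0%, with medians of 0.16 and 0.15. Of 16 cytosolic ribosomal proteins, 12 lay above the median gene in both sets. Called high were 2 (12.5%) in *egfp* KD and 3 (18.8%) in *egfp* 2x KD, against 1.22% and 1.86% of all genes. In both sets 2 were called high (*RPS13* and *RPS25*), against 0.501% of all genes and 12 of the 1927 named genes. The median of the 16 was 0.18 in *egfp* KD and 0.59 in *egfp* 2x KD. With the libraries that stood apart left out, the former was -0.10 and 7 of the 16 lay above the median gene in both sets. The highest and lowest members named for a list are those by the mean of both sets' ratios. *RPS20* was the lowest, at -0.93 and -1.11. Of 15 aminoacyl-tRNA synthetases, which charge tRNAs with amino acids, 12 lay above the median gene in both sets with medians of 0.32 and 0.46, none was called, and the values ran from *SARS* (0.04 and -0.42) to *YARS* (0.94 and 1.22). The 14 initiation factors had medians of -0.02 and -0.16, with *EIF2S2*, the beta subunit of eIF2, which delivers the initiator tRNA, highest at 1.17 and 0.65. Of the 5 termination and rescue factors 3 lay below the median gene in both sets and none above it. *GSPT1*, the GTPase of termination, was lowest at -1.54 and -0.998. Its egfp-3 footprint value was 0 and the other footprint values were 15 to 55, so its SE in *egfp* KD was 1.20. The 8 mitochondrial ribosomal proteins had medians of 0.21 and -0.36, from *MRPL20* (-1.09 and -1.27) to *MRPS22* (1.16 and 0.81).

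The 48 ribosome biogenesis factors, which process and modify rRNA, had medians of 0.25 and 0.23, and 26 lay above the median gene in both sets against 11 below it. *RRP12* was called low in both and no member was called high in both. *GTPBP4*, a GTPase of the large subunit, had mRNA values of 1182 to 1837 over both sets. Its footprint values were 3053, 2819 and 4246 in *egfp* KD and 5797, 6210 and 4896 in *egfp* 2x KD, with ratios of 1.22 and 1.92 (adjusted p = 0.00144 for the latter). The fibrillarin genes, whose products methylate rRNA and which the study knocked down in other worms, had mRNA values in a like range in the controls. The values are not divided by transcript length, so they do not compare expression between the genes. *fbl-1* had mRNA values of 143, 130 and 129 and footprint values of 338, 285 and 300 in *egfp* KD, and 186, 150 and 134 against 206, 158 and 196 in *egfp* 2x KD. *fbl-2* had mRNA values of 161, 101 and 148 and footprint values of 263, 238 and 292, then 127, 135 and 144 against 294, 315 and 308. Footprints of *fbl-2* exceeded mRNA without overlap in both sets, and those of *fbl-1* in *egfp* KD only. The ratios were 1.25 and 0.32 for *fbl-1* and 1.004 and 1.23 for *fbl-2* (SE 0.18 to 0.24), and none was called.

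Of the nuclear lists, homeobox and forkhead factors had medians above the median gene in both sets and histones below it. The medians of splicing and replication genes changed sign between the sets. The 25 splicing factors had medians of 0.13 and -0.01, with *RBM25* highest (1.51 and 1.58) and *SART1* lowest (-1.52 and -1.40), and none was called. The 20 genes of DNA replication and cell division had medians of 0.30 and -0.10 and no call, from *POLE2*, a DNA polymerase subunit (-0.31 and -1.46), to *CHAF1A*, which loads histones onto new DNA (1.23 and 1.19). Of 7 histone genes, 4 lay below the median gene in both sets and 2 above it, and the medians were -0.18 and -0.57. More than 2-fold below it in both sets were 3 (42.9%), against 5.25% of all genes and 3.58% of all named genes. *HIST1H4A* had mRNA values of 5827, 5853 and 6818 and footprint values of 1517, 1310 and 1610 in *egfp* KD, then 5073, 6161 and 4909 against 1718, 1579 and 1563 (adjusted p = 0.00149 and 0.00351). *H2AFJ*, a variant of histone H2A, was the highest of the list at 0.95 and 0.14. The 18 homeobox and forkhead factors, which set tissue identity, had medians of 0.71 and 0.80. More than 2-fold above the median gene in both sets were 6 (33.3%), against 3.49% of all genes and 6.18% of all named genes. *NKX2-2* had ratios of 1.72 and 2.18 and was called in *egfp* 2x KD (adjusted p = 0.00268), whereas *OTX2*, at mRNA values of 46 to 85 and footprint values of 0 to 77, had -2.19 and -0.27.

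The cilium list was the largest and lay above the median gene in both sets. Planarians glide on cilia of the ventral epidermis, and cilia also drive their excretory flame cells. Of 78 genes of the cilium and axoneme, 59 (75.6%) lay above the median gene in both sets and 4 below it, with medians of 0.66 and 0.60. More than 2-fold above it in both sets were 10 (12.8%), against 3.49% of all genes and 6.18% of all named genes. In *egfp* KD 1 (1.28%) was called high and in *egfp* 2x KD 5 (6.41%), none in both, against 1.35% and 3.84% of all named genes and 1.22% and 1.86% of all genes, so that the former is near the share of all genes. With the libraries that stood apart left out, 3 and 6 were called, 1 of them in both sets. *DNAH5*, a heavy chain of the outer dynein arms that power the beat, had mRNA values of 2181, 3071 and 1881 and footprint values of 5698, 5030 and 6977 in *egfp* KD. Its footprint values were 12544, 12097 and 13053 in *egfp* 2x KD at mRNA values of 2888, 1585 and 2965, and the ratios were 1.37 and 2.40 (adjusted p = 0.000587 for the latter; the difference between sets had an adjusted p of 0.0582). *WDR34*, a chain of the dynein that works inside cilia, was lowest at -0.64 and -0.35. The 8 tubulins tested had medians of -0.06 and 0.15, with the pair of *TUBB4B* genes described above at both ends.

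Muscle genes also lay above the median gene. Planarian muscle lies under the epidermis and holds positional signals. Of 21 muscle genes, 16 lay above the median gene in both sets, the medians were 0.66 and 1.25, and 1 was called high in *egfp* KD and 8 in *egfp* 2x KD, with *MYH7* in both, which are 4.76% and 38.1% of the list against 1.35% and 3.84% of all named genes. With the libraries that stood apart left out, 3 and 8 were called high, 2 of them in both sets. *MYLK*, a kinase of myosin light chain, was lowest at -0.9995 and -0.46. Of 27 extracellular matrix genes 16 lay above and 2 below the median gene in both sets, with medians of 0.67 and 0.23, and *COL4A6* was the call shared by the sets. *COL6A3*, a collagen of microfibrils, was lowest at -1.42 and -0.44.

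Lists of protein folding, degradation and energy metabolism had at most 1 call each in a set. These lists were short, so that 1 call was 5% to 16.7% of a list, against 1.22% to 2.58% of all genes by set and direction. With the libraries that stood apart left out, 3 of the 20 lysosome and digestive enzymes were called high in *egfp* KD and 1 low. In that fit 2 of the 18 endoplasmic reticulum genes were called high and 1 of the 4 proteasome subunits low, against 226 high and 415 low of all 10581 genes. The 18 genes of endoplasmic reticulum import and folding had medians of 0.55 and 0.16, from *CALU* (-0.75 and -0.55) to *DAD1*. The 20 lysosome and digestive enzymes had medians of 0.69 and 0.18. *CTSV*, a cathepsin, had mRNA values of 166 to 369 over both sets and footprint values of 30 to 55, with ratios of -2.20 and -3.11, and it was called low in *egfp* 2x KD (adjusted p = 0.000454). *PSAP* (*SMED30033467*), the precursor of the saposins that help to degrade sphingolipids, was highest at 1.91 and 0.71. The 6 oxidative phosphorylation subunits had medians of 0.49 and 0.13, and *UQCRH*, of complex III, was lowest at 0.49 and -0.22. The 14 mitochondrial matrix enzymes had medians of 0.08 and 0.16 with no call, from *IVD* (-0.22 and -0.69) to *BCKDHA* (0.45 and 0.80). Of the 4 proteasome subunits, *PSMD1*, a scaffold of the regulatory particle, had ratios of 0.9999 and 1.30 and *PSMA1*, of the core ring, -2.24 and -1.73. The 14 chaperones had medians of -0.02 and 0.21. *HSPA8* (*SMED30011221*), a constitutive Hsp70, had mRNA values of 1080 to 1757 over both sets, with footprint values of 2369, 1920 and 2512 in *egfp* KD and of 4537, 4706 and 4153 in *egfp* 2x KD. It was called high in *egfp* 2x KD at 1.62 (adjusted p = 0.0083), a call lost without footprint library egfp_2x_1 (adjusted p = 0.0567), and had 0.78 in *egfp* KD.

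Lists of signalling and membrane transport had at most 1 call each in a set and direction. In *egfp* KD, 2.27% of ion channels were called high and 2.27% low, and 1.96% of solute carriers low, against 1.22% and 2.58% of all genes. In *egfp* 2x KD, 6.67% of synaptic genes were called high and 2.63% of the TRAF family low, against 1.86% and 1.79% of all genes. With the libraries that stood apart left out, 2 of 38 TRAF genes were called low in *egfp* KD and 1 in both sets, against 415 and 155 of all 10581 genes. The 44 ion channels had medians of -0.02 and 0.17. *PIEZO2*, a mechanically gated channel, had mRNA values of 82 to 163 and footprint values of 20, 15 and 26 in *egfp* KD and of 24, 81 and 58 in *egfp* 2x KD. Its ratio was -2.50 in *egfp* KD (adjusted p = 0.0422), a call that was kept in 1 of 6 fits with a library left out, the one without egfp-3, and -0.80 in *egfp* 2x KD. *GRIA3*, a glutamate receptor subunit, was highest at 0.93 and 1.21. The 51 solute carriers had medians of 0.13 and 0.09, with *SLC22A15* at 1.40 and 0.53. The 15 synaptic vesicle and transmitter genes had medians of 0.45 and 0.60, and *SYN2*, a synapsin, which tethers vesicles, was called high in *egfp* 2x KD at 1.69 (adjusted p = 0.0431). That call was lost without mRNA replicate 1 and without each of the 3 footprint libraries (adjusted p up to 0.145), and its ratio in *egfp* KD was 0.96. *SYT15*, a synaptotagmin, was lowest at -0.59 and -0.99. Only 5 of 57 G protein coupled receptors reached the mRNA minimum, with *SSTR5* at 0.88 and 0.08 and *DRD2* at -0.83 and -1.59. The TRAF family, adaptors of receptor signalling that number 46 genes in the named set, was 1 of 5 lists with a median below the median gene in both sets. Of 38 tested, 19 lay below it in both sets and 3 above it, with medians of -0.29 and -0.13, from *TRAF5* (0.28 and 0.43) to *TRAF3* (*SMED30005935*; -3.70 and -4.72), whose footprint values were 0 to 8.

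**Figure D3:**
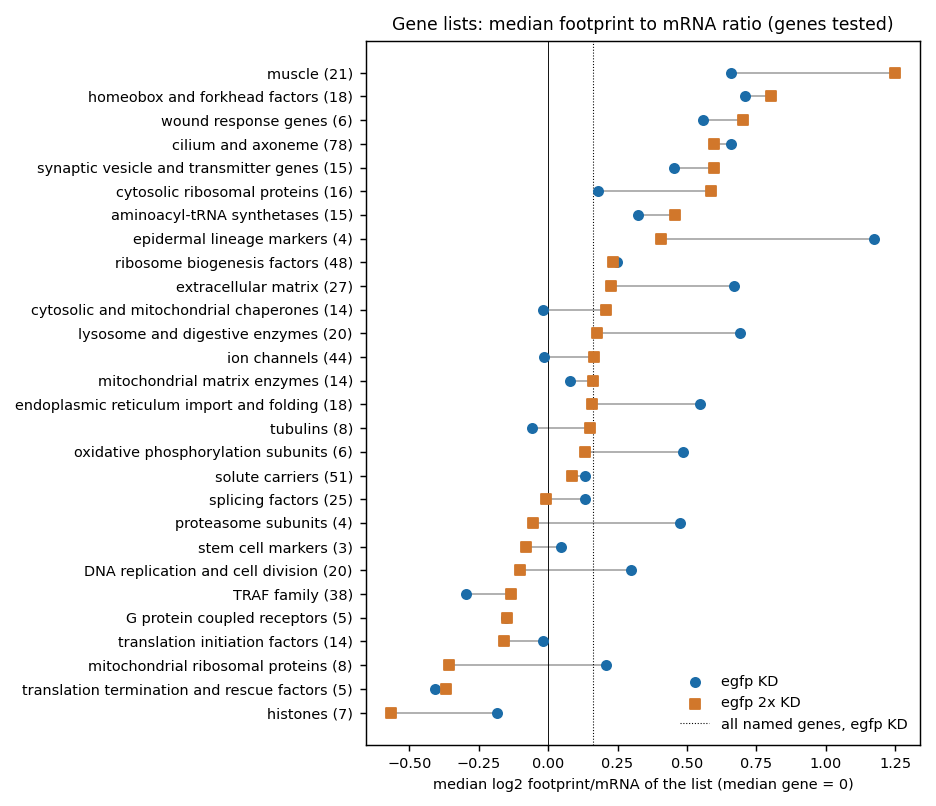
Median log2 footprint to mRNA ratio (x axis, median gene at 0) of 28 gene lists in *egfp* KD (circles) and *egfp* 2x KD (squares), with the number of genes tested in parentheses and the median of all named genes in *egfp* KD dotted (0.16). Muscle, homeobox and forkhead factors and cilium lie to the right of that line in both sets, and histones and the TRAF family lie left of 0 in both.

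Markers of the cells that rebuild the body were close to the median gene for stem cells and above it for most epidermal and wound genes tested. *piwi-1*, the neoblast marker, had mRNA values of 12299, 12634 and 13971 and footprint values of 13928, 13922 and 10816 in *egfp* KD. In *egfp* 2x KD its footprint values of 8327, 9347 and 8550 lay below its mRNA values of 12486, 13103 and 11974. The ratios were 0.05 (SE 0.16) and -0.45 (SE 0.10), and their difference had an adjusted p of 0.0588. *vasa-1*, an RNA helicase of stem cells, had 0.34 and 0.10, and *MCM2*, of the replicative helicase, -0.13 and -0.08. In the epidermal lineage, *prog-1*, of early progenitors, had mRNA values of 1309, 791 and 951 and footprint values of 709, 739 and 707 in *egfp* KD. Its values in *egfp* 2x KD were 839, 814 and 873 for mRNA and 282, 295 and 317 for footprints, and it was the one epidermal marker tested that lay below the median gene in both sets (-0.44 and -1.43). *AGAT-1*, of late progenitors, had mRNA values of 1673, 1786 and 1875 and footprint values of 4069, 4214 and 3295, then 1824, 1621 and 1955 against 2969, 2938 and 3053. The footprints lay above the mRNA in each set, at ratios of 1.17 and 0.79. *egr-5*, a transcription factor of the later lineage, had 1.34 and 1.22 (SE 0.15 and 0.19), and *zpuf-4* 1.17 and 0.02. *zpuf-3* was under the mRNA minimum in *egfp* 2x KD and was not tested, with mRNA values of 27 to 82 and footprint values of 0 to 25. Its mean mRNA and footprint values were 66 and 13.7 in *egfp* KD and 44.3 and 9.33 in *egfp* 2x KD. The footprints of *zpuf-3* thus lay below its mRNA in both sets, as did those of *prog-1*.

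Among wound response genes, 5 of the 6 tested lay above the median gene in both sets. *inhibin-1*, a ligand of the TGF-beta family, had ratios of 1.36 and 1.11, *wntless*, which escorts Wnt proteins to the surface, 1.07 and 0.70, *glypican-1*, a surface proteoglycan, 0.57 and 0.77, *nlg-1*, noggin-like, 0.54 and 0.15, and *fos-1*, of the AP-1 factor, 0.42 and 0.70. *jun-1*, the partner of Fos in AP-1, had mRNA values of 2595, 2590 and 2732 and footprint values of 2128, 1732 and 2880 in *egfp* KD, and 2261, 2605 and 2453 against 2515, 2464 and 2324, with ratios of -0.18 and 0.06. The assays of *jun-1* overlapped in both sets. No marker of the 3 kinds was called high or low in a set. The ratios of *prog-1* (difference -1.08, adjusted p = 0.0162) and *zpuf-4* (-1.31, adjusted p = 0.0497) differed between the sets, the first in 10 and the second in 2 of 12 fits with a library left out. *wnt-1* and *runt-1* were under the mRNA minimum, with mRNA values of 18 to 27 and 20 to 42.

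**Figure D4:**
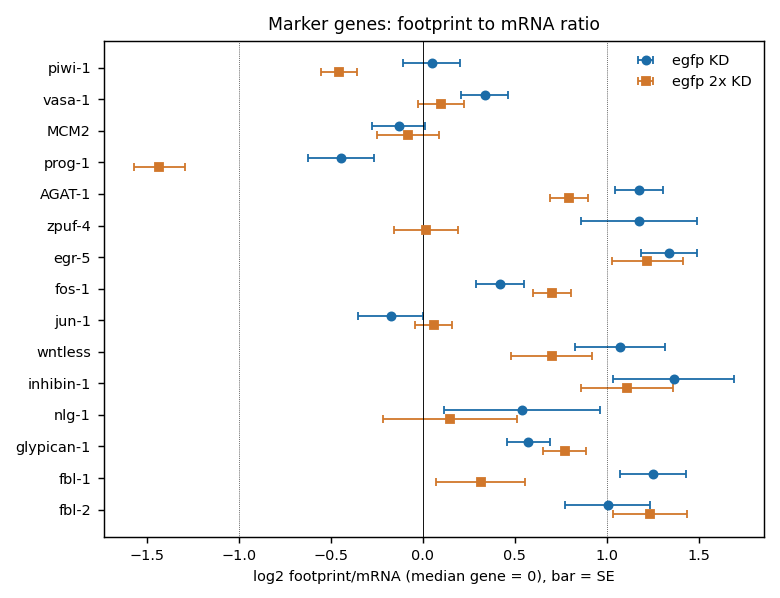
Log2 footprint to mRNA ratio (x axis, median gene at 0; bars, SE from limma over 3 libraries of each assay) of stem cell, epidermal and wound response markers and of *fbl-1* and *fbl-2* in *egfp* KD (circles) and *egfp* 2x KD (squares); dotted lines mark 2-fold. *prog-1* lies lowest in both sets, and *egr-5* lies above 1 in both.

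The study's cell type column gives some genes to a single tissue. The medians of *egfp* KD and *egfp* 2x KD were 0.41 and 0.26 over 57 muscle genes, 0.16 and 0.22 over 175 neural genes, 0.11 and 0.11 over 115 intestine genes and 0.11 and -0.13 over 105 neoblast genes. Parapharyngeal genes, of the gland cells around the pharynx, were the one tissue of 9 below the median gene in both sets, at -0.26 and -0.14 over 39 genes. Epidermal genes had medians of 0.58 and 0.08 over 103 genes. Muscle genes had 11 members more than 2-fold above the median gene in both sets and none more than 2-fold below it. Neural genes had 16 and 7, and neoblast genes 7 and 7. These are 19.3% and 0% of the muscle genes, 9.14% and 4% of the neural genes and 6.67% of the neoblast genes in each direction, while all named genes had 6.18% and 3.58% and all genes 3.49% and 5.25%. The muscle count was 7 with the libraries that stood apart left out.

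The ratio itself differed between the control sets for some genes. Of 10581 genes, 291 (2.75%) were higher in *egfp* 2x KD and 586 (5.54%) lower (limma, interaction of assay and set, adjusted p under 0.05). These counts rest on few libraries. They were 12 and 35 without *egfp* KD mRNA replicate 2, 18 and 42 without *egfp* 2x KD mRNA replicate 2, 87 and 214 without footprint library egfp-1, 41 and 145 without egfp-2, and 1144 and 1220 without egfp-3. Without any one of the other 7 libraries the higher count was 116 to 183 and the lower count 297 to 522. With the number in the column names as a replicate block they were 23 and 123. The sets were separate worms and libraries whose preparation dates are not given, so a difference of dose, worms, footprint preparation or sequencing cannot be told apart. Among genes of 1 tissue, 28 of 103 epidermal genes were lower in *egfp* 2x KD and 2 higher, and among the lists 8 of 20 lysosome and digestive enzymes and 5 of 18 genes of endoplasmic reticulum import were lower and none higher. Of 21 muscle genes 2 were higher and none lower. With the libraries that stood apart left out, 22 epidermal genes were lower and 4 higher, 5 lysosome genes lower and 4 higher, 4 endoplasmic reticulum genes lower and 1 higher, and 1 muscle gene lower and 9 higher.

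Named genes with lower ratios in *egfp* 2x KD included *FTMT*, *CTSF* and *SM21.7*. *CTSF*, a cathepsin, had mRNA values of 3684, 3472 and 3576 and footprint values of 10930, 12898 and 8945 in *egfp* KD. In *egfp* 2x KD its mRNA values were 4829, 5180 and 4351 and its footprint values 6679, 6524 and 7639, so its footprint values were lower and its mRNA values higher than in *egfp* KD without overlap, and the ratio was 1.67 and 0.60 (difference -1.11, SE 0.19, adjusted p = 0.0103). *SM21.7*, named for a tegumental antigen of blood flukes, had footprint values of 742, 852 and 721 in *egfp* KD and of 380, 309 and 327 in *egfp* 2x KD at mRNA values of 313 to 440, a difference of -1.40 (adjusted p = 0.00933). *SLC26A2*, a sulfate transporter, went the other way. Its footprint values were 131, 114 and 200 in *egfp* KD and 524, 516 and 426 in *egfp* 2x KD at mRNA values of 425 to 842, and the ratio was -2.11 and -0.08 (difference 1.99, SE 0.32, adjusted p = 0.00966). *RANBP2*, a nuclear pore protein, had -0.11 and 1.19, and *ALAS2*, the first enzyme of heme synthesis, -0.18 and 0.69. The differences of *FTMT*, *CTSF*, *SM21.7* and *SLC26A2* were called in each of 12 fits with a library left out, whereas *RANBP2* lost its call without *egfp* KD mRNA replicate 2 (adjusted p = 0.0537) and *ALAS2* without that library or *egfp* 2x KD mRNA replicate 2 (up to 0.0531).

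**Figure D5:**
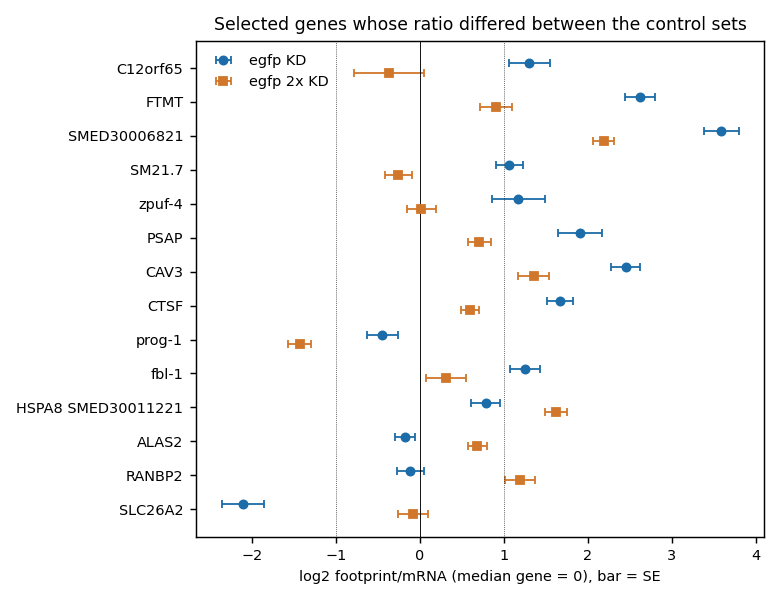
Log2 footprint to mRNA ratio (x axis, median gene at 0; bars, SE from limma over 3 libraries of each assay) in *egfp* KD (circles) and *egfp* 2x KD (squares) of 14 of the 15 genes described here whose ratio differed between the sets; *FCGBP*, at -4.17 and -2.83, is not drawn. *FTMT* lies at 2.62 and 0.90, and *SLC26A2* at -2.11 and -0.08; *SMED30006821* lies above 2 in both.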

How the data were processed

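RNA-seq and Ribo-seq libraries of 2 control groups were used, 3 of each assay per group (12 libraries); the 12 knockdown columns were not used. According to the study's methods, RNase A produced the footprints, Cutadapt and Sickle trimmed the reads, rRNA was removed, Tophat2 aligned the rest to a transcriptome, and featureCounts counted uniquely mapped reads. The deposited numbers are a signal, not counts: the authors made whole numbers from read counts by 1 unstated factor per library. Count tests were therefore not run, and the depth is unknown. Footprint columns are named like mRNA samples, so they were assigned to a group and used unpaired.

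The printed ratio is log2((mean footprints + 1)/(mean mRNA + 1)) minus its median over the 10581 genes with mean mRNA of 50 or more in both sets. SEs and p-values come from limma 3.58.1 in R 4.3.3 on log2(value + 1), with a mean trend, 1 shift per set to put the median gene at 0, a two-sided test against a 2-fold distance (treat) within a set and against 0 for the difference between sets. The p-values were adjusted by Benjamini-Hochberg over all genes tested, with a threshold of 0.05. Each replicate was a separate pool of worms by the methods; the p-values measure the spread between these libraries.

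Names (2529 genes in the tables) are best protein matches in the part of the study's supplementary lists held here, which are sorted by change in knockdown worms, so named genes and the lists are not a random sample. Named in the text are the 8 highest and 8 lowest called genes of *egfp* KD whose assays do not overlap, the highest and lowest member by mean ratio of each of 28 lists, the study's marker genes, *fbl-1* and *fbl-2*, the 3 most significant differences between sets per direction and 2 unnamed genes per end. The other named genes called in both sets were added after their values were seen, as were other copies of a named gene. The members and lists were chosen with earlier results of these data known, and *HTRA1* and *GRINA* were taken out of lists that had matched them by spelling.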

Additional observations from a re-analysis of the deposited data

Results flagged for a closer look

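The groups had 3 libraries, too few for a test of single outlying libraries. Of all genes with a name, 58 (3.01%) had a higher and 106 (5.5%) a lower ratio in *egfp* 2x KD, near the 2.75% and 5.54% of all genes. The 99 genes described here include, by choice, the 3 most significant differences per direction, so their count is not a share to set against all genes. Among the 99 genes described here 15 differed between the control sets (interaction in limma, adjusted p under 0.05), given here as the log2 difference, *egfp* 2x KD minus *egfp* KD. It was negative for *C12orf65* (-1.90), *FTMT* (-1.79), *SMED30006821* (-1.50), *SM21.7* (-1.40), *zpuf-4* (-1.31), *PSAP* (-1.26), *CAV3* (-1.14), *CTSF* (-1.11), *prog-1* (-1.08) and *fbl-1* (-0.99). It was positive for *SLC26A2* (1.99), *RANBP2* (1.26), *FCGBP* (1.26), *ALAS2* (0.80) and *HSPA8* (*SMED30011221*, 0.77). *FTMT*, *SMED30006821*, *SM21.7*, *CTSF* and *SLC26A2* were called in all 12 fits with a library left out. *RANBP2* was called in 11, *ALAS2* and *prog-1* in 10, *CAV3* in 8, *C12orf65* and *PSAP* in 4, *HSPA8* and *FCGBP* in 3, *zpuf-4* in 2 and *fbl-1* in 1, the last with adjusted p from 0.0306 to 0.128.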

How the results depend on the processing

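Footprint columns carry a number, as do the mRNA columns, but no source ties the numbers to 1 lysate. Deviations from the group mean correlated at -0.225 to 0.068 between mRNA and footprint libraries of the same number, and at -0.082 to 0.177 between those of other numbers. With 3 libraries of each assay, and noise of each assay in the deviations, this cannot show whether libraries of the same number came from 1 lysate. With that number as a replicate block, 94 genes were high and 252 low in *egfp* KD, 207 and 195 in *egfp* 2x KD, 38 and 163 in both, and 23 higher and 123 lower between the sets. For the comparisons between the sets the block was chosen after seeing the data. Of the calls of the 99 genes described, the block lost 6 of 42 in *egfp* KD (*PIEZO2*, *FKBP15*, *COL4A6*, *TSHZ2*, *CTSF* and *SUGCT*), 1 of 42 in *egfp* 2x KD (*PGLYRP2*) and 9 of 15 between the sets, where *FTMT*, *SMED30006821*, *SM21.7*, *CTSF*, *SLC26A2* and *RANBP2* were called. Other pseudocounts, centring on the median or upper quartile, robust variances, 1 fit over 12 libraries and values without the shift left every count within 1.5 times its value, where run. With mean mRNA of 200 or more, 60 genes were high in *egfp* KD and 26 in both sets. With no mRNA minimum, 238 were high in *egfp* KD and 183 higher in *egfp* 2x KD than in *egfp* KD. Without a mean trend, 106 were high in *egfp* 2x KD, 34 high in both, and 84 higher and 249 lower between the sets. Against no distance, 2179 were high and 1931 low in *egfp* KD, 2328 and 1710 in *egfp* 2x KD, and 1200 and 988 in both. Against 1.5-fold, these were 511 and 549, 652 and 355, and 209 and 256. With footprints also at 50 or more, the Pearson correlation was 0.688. Leaving out the 3 libraries that stand apart, chosen after seeing the data, gave 226 high and 415 low in *egfp* KD, and 583 genes higher in *egfp* 2x KD than in *egfp* KD. Leaving out 1 library at a time gave 66 to 264 high and 169 to 497 low in *egfp* KD, 129 to 196 and 158 to 210 in *egfp* 2x KD, 31 to 64 and 131 to 178 in both, 12 to 1144 higher and 35 to 1220 lower between the sets, and correlations of 0.593 to 0.687 (Spearman) and 0.807 to 0.857 (Pearson). None of the 99 genes described changed direction while called in an alternative. The depth is unknown, so no counting interval can be given, and coding length and read assignment were not tested.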

Other observations

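Some genes outside the comparison had footprints with hardly any mRNA. Mean footprint values were 50 or more in both sets for 320 genes under the mRNA minimum, and for 10 of these the mean mRNA value was under 5 in both sets. *SMED30026248*, which has no name, had mRNA values of 0, 0 and 0 in *egfp* KD and 0, 1 and 0 in *egfp* 2x KD, with footprint values of 1198, 942 and 1385 and of 2429, 1702 and 2051. *PSAP* (*SMED30012451*), a second gene named for the saposin precursor, had mRNA values of 0 to 2 and footprint values of 761, 810 and 297, then 274, 386 and 290. *TSPAN6*, a tetraspanin, had mRNA values of 2 to 7 and footprint values of 130, 178 and 0, then 56, 44 and 88, so that library egfp-3 was at 0 where the other libraries of its set were not. How each assay assigned reads to similar genes was not tested.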
